A study of Mus musculus with 8 samples.

Results

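The proteasome genes described here are the subunits, activators and assembly factors whose symbols run from Psma to Psmg followed by a number. A search of gene symbols found 49 of them among the 53090 genes in the tables, and all 49 matched a GENCODE gene. They comprise 7 constitutive alpha and 7 constitutive beta subunits of the core particle, 5 core subunits that replace these in particular cells, 6 ATPases and 11 other subunits of the regulatory particle, 6 genes for other activators and an inhibitor, and 7 assembly factors. Another 5 rows with Psm symbols fell outside the search: Psmc3ip, which acts in meiotic recombination, with at most 80.6 counts in a library, and 4 pseudogenes with at most 2 counts.

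RNA of whole sciatic nerves of mice aged 7 days (P7) was sequenced in 4 Nae1 cKO and 4 WT samples. Each sample is called a nerve below, and the labels do not say how many mice it came from. Nae1 cKO mice carried a Cre recombinase that is expressed in Schwann cells, together with 2 floxed Nae1 alleles. The controls labelled WT were Cre-negative littermates with 1 or 2 floxed Nae1 alleles, so floxed alleles were present in both genotypes and Cre in Nae1 cKO mice only. Fibroblasts, macrophages and vessels of the nerve keep Nae1 under this design, and a change in bulk nerve RNA cannot be told apart from a change in the share of a cell type.

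The proteasome degrades proteins that carry ubiquitin chains. Its core particle is a barrel of outer alpha rings, which gate the entrance, and inner beta rings, which hold the proteolytic sites. The regulatory particle binds ubiquitin chains, removes them, and threads the substrate into the barrel with a ring of ATPases. Other activators can cap the core in its place, and assembly factors leave once the particle is built. Nae1 encodes a subunit of the enzyme that activates NEDD8, a ubiquitin-like protein whose attachment to cullins switches on the largest family of ubiquitin ligases upstream of the proteasome.

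Expected counts summed to between 12962798 and 13855366 per library in Nae1 cKO nerves and between 13508752 and 14766770 in WT nerves. Nae1 itself was at 57.1, 57.2, 48.9 and 43.8 CPM (counts scaled to library size by TMM) in Nae1 cKO nerves K2, L1, L5 and L8, against 89.8, 81.3, 77.7 and 82.7 CPM in WT nerves K1, L3, L4 and L9. The genotypes did not overlap, and Nae1 fell by 0.68 on the log2 scale (SE 0.097, edgeR quasi-likelihood test, Benjamini-Hochberg adjusted p = 2.8e-04; exact two-sided permutation p = 0.0286, the smallest that 4 against 4 allows). All 9 Schwann lineage markers were detected in both genotypes. Nae1 cKO nerve K2 stood apart: the small nuclear RNA 7SK took 4.70% of its counts, compared with 1.94% to 2.43% in L1, L5 and L8, and mitochondrial genes took 1.54%, against 3.08% to 3.13%. The muscle markers summed to 134.4 to 2176 CPM in WT nerves and 65.6 to 199.6 CPM in Nae1 cKO nerves, which overlapped, with the most in WT nerves L4 and K1. Results are therefore also given without these libraries where they changed.

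The transcripts of 6 proteasome genes were higher in Nae1 cKO nerves and none was lower, and all 6 changes were below 2-fold. The largest were in Psmb8, which encodes an interferon-inducible catalytic subunit, and in Psme2 and Psme1, which encode the partner subunits of an interferon-inducible activator. The others were Psma5 and Psma3 of the outer rings and Psme4, a large single-chain activator. With TMM scaling, the 17 regulatory particle subunits and the 7 assembly factors did not pass the test. Over the 46 proteasome genes with enough counts to be tested, 13.04% rose, against 14.1% of all 17090 genes tested, and none fell, against 12.3% of all genes. None of the 46 passed the test with a change over 2-fold, against 4.25% of all genes higher and 2.49% lower. With this scaling the share of proteasome genes that rose was close to the background, whereas with library totals in place of TMM it was 39.13%, against 22.67% of all genes, and on log2(FPKM + 1) 34.78%, against 19.65%. The nerves of the genotypes were fully separated for 9 proteasome genes, all higher in Nae1 cKO nerves, against 14.9% of all genes higher and 13.7% lower.

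**Figure D1:**
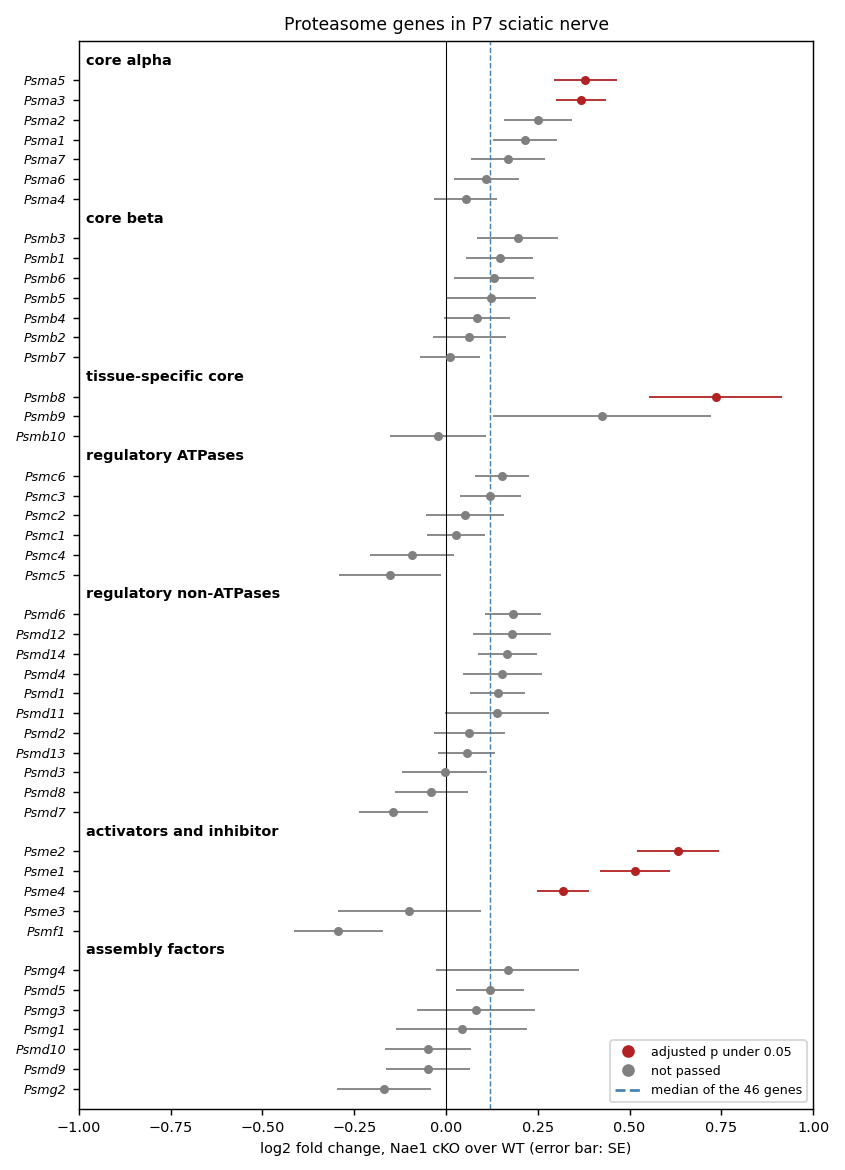
Log2 fold change of Nae1 cKO over WT nerves (x axis, error bars SE, n = 4 and 4) for the 46 tested proteasome genes, grouped by role; red points passed an adjusted p under 0.05 in edgeR. The 6 red points lie between 0.32 and 0.73, all 14 constitutive core subunits lie above 0, and the dashed line is the median of the 46 genes at 0.12.

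The shifts were small and mostly upwards. The median log2 fold change of the 46 genes was 0.12, against 0.0066 over all genes tested, and 35 of the 46 lay above 0. At an unadjusted p under 0.05 there were 10 of the 46 genes, of which Psmf1 alone was lower. Over all genes tested, 26.4% passed the stricter adjusted p under 0.05 in either direction, so this count was not above the background. Without the library WT L4 the median of the proteasome genes was 0.07, and without Nae1 cKO K2 it was 0.08. Summed over the 49 genes, the proteasome took 0.241% of the counts of K2 and 0.263% to 0.265% in the other Nae1 cKO nerves, against 0.202% to 0.223% in WT nerves, a share of library totals without TMM scaling. On library totals the median log2 fold change of all genes tested was itself 0.16, against 0.27 for the proteasome genes.

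Promoters of the proteasome genes were searched for motifs of factors known to bind them, on both strands of the 300 bases around each RefSeq start site (250 before, 50 after, GRCm38.p6). Of the 49 genes 41 had a promoter, 44 in all. The antioxidant response element core TGACNNNGC was in 6 of the 44 promoters (13.6%), against 12.4% of 32851 promoters of all genes. The NF-Y box CCAAT was in 14 (31.8%, against 37.4%). An interferon-type motif chosen after the values were seen, 2 copies of GAAA 2 bases apart, was in 5 (11.4%, against 3.44%): Psme1, which rose, and Psmb3, Psmd4, Psmd9 and Psmg4, which did not pass. On the strand of the gene alone, TGACNNNGC was in 6.82% of the 44 promoters, against 6.38% of all, CCAAT in 27.3%, against 21.1%, and the interferon-type motif in 4.55%, against 1.74%. The sequences before the start sites of genes that rose are shown in the direction of the gene, with CCAAT in capitals where present, followed by 2 with the antioxidant motif in capitals. Psme1 and Psmb8 are left out because their windows overlap annotated exons.
Psma3 (chr12:70974473-70974620, plus strand): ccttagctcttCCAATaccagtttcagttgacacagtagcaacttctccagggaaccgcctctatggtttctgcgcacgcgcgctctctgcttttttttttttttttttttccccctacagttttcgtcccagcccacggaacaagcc
Psma5 (chr3:108256776-108256877, plus strand): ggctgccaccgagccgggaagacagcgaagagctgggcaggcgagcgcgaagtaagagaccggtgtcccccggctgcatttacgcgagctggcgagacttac
Psme2 (chr14:55591114-55591251, minus strand): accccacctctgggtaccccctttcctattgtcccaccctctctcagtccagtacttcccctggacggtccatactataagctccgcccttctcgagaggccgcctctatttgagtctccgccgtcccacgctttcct
Psme4 (chr11:30771625-30771725, plus strand): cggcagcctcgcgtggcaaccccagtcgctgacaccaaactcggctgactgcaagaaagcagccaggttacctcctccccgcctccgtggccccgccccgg
Psmb5 (chr14:54618023-54618072, minus strand): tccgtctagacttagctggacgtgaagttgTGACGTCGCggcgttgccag
Psmd9 (chr5:123228129-123228189, plus strand): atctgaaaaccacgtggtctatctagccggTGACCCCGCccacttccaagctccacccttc

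In Psma3 the CCAAT box shown began 139 bases before the start site. The searched Psma3 promoter also held CCAAT after the start site, at base 31 and, on the opposite strand, at base 14. In Psmb5 and Psmd9 the antioxidant motif began 47 and 31 bases before the start site, and neither gene passed the test (log2 fold changes 0.12 and -0.05). Psmb6, Psmc6 and Psmd12 held the motif too and did not pass, and Psme4, which held it 7 bases before the start site on the opposite strand, rose. Promoters with and without the motif thus both occurred among genes that rose and genes that did not.

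All 14 constitutive subunits of the core particle had log2 fold changes above 0, with a median of 0.14, although those of Psma4, Psmb2 and Psmb7 were below 0 without both WT K1 and WT L4. Of the 14, 2 alpha subunits rose (14.29%, against 14.1% of all genes tested) and 12 subunits did not pass. Over all genes tested, 50.8% had log2 fold changes above 0. Psma3, an alpha subunit of the outer ring, was at 84.0, 86.0, 90.8 and 82.7 CPM in Nae1 cKO nerves K2, L1, L5 and L8, against 67.6, 66.8, 64.1 and 67.8 CPM in WT nerves K1, L3, L4 and L9. The lowest Nae1 cKO nerve lay above the highest WT nerve, and Psma3 rose by 0.37 on the log2 scale (SE 0.068, adjusted p = 0.0017 in edgeR). Psma5, another alpha subunit, was at 46.1, 54.3, 50.8 and 55.2 CPM in Nae1 cKO nerves, against 39.5, 41.5, 36.7 and 40.9 CPM in WT nerves, in the same order of nerves. The genotypes again did not overlap, and Psma5 rose by 0.38 on the log2 scale (SE 0.085, adjusted p = 0.0056 in edgeR). Without both WT K1 and WT L4 the adjusted p of Psma5 was 0.088.

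Among the alpha subunits that did not pass, Psma2 was at 61.7 to 77.5 CPM in Nae1 cKO nerves and 50.6 to 60.7 CPM in WT nerves, which did not overlap (log2 fold change 0.25, edgeR adjusted p = 0.065). Psma1 overlapped between genotypes (log2 fold change 0.22, adjusted p = 0.093 in edgeR). Psma7, Psma6 and Psma4 had log2 fold changes of 0.17, 0.11 and 0.05. The 7 beta subunits form the inner rings, and their log2 fold changes ran from 0.01 for Psmb7 to 0.20 for Psmb3, with no adjusted p below 0.222. The catalytic beta subunits are Psmb5, Psmb6 and Psmb7, with chymotrypsin-like, caspase-like and trypsin-like activity. Their 95% intervals of the log2 fold change were -0.14 to 0.39 for Psmb5, -0.11 to 0.37 for Psmb6 and -0.17 to 0.19 for Psmb7. The remaining beta subunits Psmb3, Psmb1, Psmb4 and Psmb2, which have no active site, had log2 fold changes of 0.20, 0.15, 0.08 and 0.06.

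Of the core subunits made in particular cells, Psmb8 rose. It replaces Psmb5 in the immunoproteasome, the form that prepares peptides for MHC class I molecules in cells exposed to interferon and in leukocytes. Psmb8 was at 7.02, 5.43, 8.16 and 7.60 CPM in Nae1 cKO nerves K2, L1, L5 and L8, against 4.02, 5.29, 3.59 and 4.05 CPM in WT nerves K1, L3, L4 and L9. The genotypes were separated by a narrow margin, between Nae1 cKO L1 and WT L3, and the counts behind these values were low, at 50 to 120 per library. The log2 fold change was 0.73 (SE 0.18, edgeR adjusted p = 0.0097), and the adjusted p was 0.130 without both WT K1 and WT L4. Psmb9, which replaces Psmb6, was at 1.32 to 2.30 CPM in Nae1 cKO nerves and 1.02 to 2.03 CPM in WT nerves, which overlapped (log2 fold change 0.42, 95% interval -0.22 to 1.07). Psmb10, which replaces Psmb7, was at 12.1 to 14.8 CPM in Nae1 cKO nerves and 11.6 to 16.0 CPM in WT nerves (log2 fold change -0.02, 95% interval -0.31 to 0.26). The difference in fold change between Psmb8 and the other inducible subunits was not tested. Psma8, an alpha subunit of the testis, reached at most 0.54 CPM in a library, and Psmb11, a catalytic subunit of the thymic cortex, at most 0.52 CPM, so neither had enough counts to be tested.

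Among the activators, Psme1 and Psme2 rose together. Their proteins form a ring that caps the core particle without ATP and is induced by interferon. Psme1 was at 27.0, 23.0, 24.2 and 24.4 CPM in Nae1 cKO nerves K2, L1, L5 and L8, against 17.2, 17.6, 16.0 and 18.3 CPM in WT nerves K1, L3, L4 and L9. Psme2 was at 29.3, 31.8, 37.8 and 34.6 CPM in Nae1 cKO nerves, against 21.0, 18.3, 23.5 and 23.3 CPM in WT nerves, in the same order. In both genes every Nae1 cKO nerve lay above every WT nerve. The log2 fold change was 0.51 for Psme1 (SE 0.094, edgeR adjusted p = 0.0016) and 0.63 for Psme2 (SE 0.11, edgeR adjusted p = 0.0013). Psme4 encodes an activator known from spermatogenesis and DNA repair in mice, and was the member with the most counts. It was at 212, 207, 201 and 200.5 CPM in Nae1 cKO nerves and 159, 178, 153 and 168 CPM in WT nerves. Its nerves did not overlap, its log2 fold change was 0.32 (SE 0.071, adjusted p = 0.0054 in edgeR), and without both WT K1 and WT L4 its adjusted p was 0.101.

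The remaining genes of this group did not pass. Psme3, whose protein forms a nuclear activator ring, was at 11.9 to 19.6 CPM in Nae1 cKO nerves and 13.4 to 24.2 CPM in WT nerves, which overlapped (log2 fold change -0.10, 95% interval -0.53 to 0.33). Psmf1 encodes a protein first described as a proteasome inhibitor, and was at 37.2, 31.2, 41.6 and 45.9 CPM in Nae1 cKO nerves, against 45.2, 42.0, 54.2 and 49.6 CPM in WT nerves. Its nerves overlapped, and its log2 fold change was -0.29 (adjusted p = 0.10 in edgeR). Psme2b, a copy of Psme2 at most at 1.12 CPM in a library, was not tested.

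**Figure D2:**
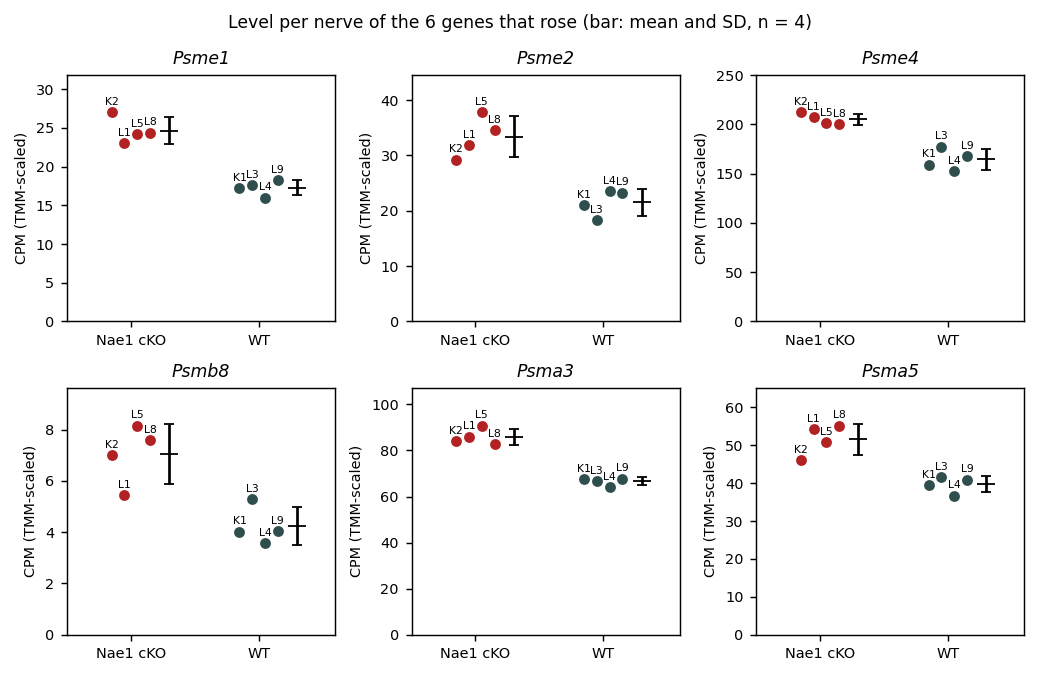
CPM (TMM-scaled, y axis from 0) of the 6 proteasome genes that rose, in each Nae1 cKO nerve (left, red) and WT nerve (right, dark grey), named by library, with mean and SD of 4 nerves. In every panel the lowest Nae1 cKO nerve lies above the highest WT nerve, most narrowly for Psmb8.

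No subunit of the regulatory particle passed the test. Log2 fold changes of the 17 subunits ran from -0.15 for Psmc5 to 0.18 for Psmd6, with a median of 0.06. The 6 ATPases unfold the substrate. Of these, Psmc6 was at 66.6 to 73.4 CPM in Nae1 cKO nerves and 59.3 to 65.9 CPM in WT nerves, separated by less than 1 CPM (log2 fold change 0.15, edgeR adjusted p = 0.157). Psmc3, Psmc2 and Psmc1 had log2 fold changes of 0.12, 0.05 and 0.03, and Psmc4 and Psmc5 of -0.09 and -0.15. Among the other subunits, Psmd6 was at 56.0 to 57.9 CPM in Nae1 cKO nerves and 45.8 to 53.7 CPM in WT nerves, without overlap (log2 fold change 0.18, edgeR adjusted p = 0.098). The deubiquitinase Psmd14 had a log2 fold change of 0.17 (95% interval -0.0079 to 0.34) and its structural partner Psmd7 of -0.14 (95% interval -0.35 to 0.06). Psmd4, a receptor for ubiquitin chains, had a log2 fold change of 0.15, and the scaffold subunits Psmd1 and Psmd2 of 0.14 and 0.06. Psmd12, Psmd11, Psmd13, Psmd3 and Psmd8 had log2 fold changes of 0.18, 0.14, 0.06, -0.0039 and -0.04. The 95% interval of the most precisely measured of the 17, Psmc6, ran from -0.0090 to 0.31, so an increase of up to 0.31 lay within it. These results depended on the scaling. With library totals in place of TMM, Psmc3, Psmc6, Psmd1, Psmd4, Psmd6 and Psmd14 passed, when 22.67% of all genes were higher. On log2(FPKM + 1), Psmc6, Psmd1, Psmd4 and Psmd6 passed, when 19.65% of all genes were higher.

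The assembly factors did not pass either. Psmg1 to Psmg4 guide the building of the core particle, and had log2 fold changes of 0.04, -0.17, 0.08 and 0.17. Psmd5, Psmd9 and Psmd10 chaperone the ATPase ring, and had log2 fold changes of 0.12, -0.05 and -0.05. All 7 overlapped between genotypes, and their smallest adjusted p was 0.373 in edgeR, for Psmg2. Their mean levels ran from 5.51 to 39.5 CPM in Nae1 cKO nerves and 5.36 to 36.4 CPM in WT nerves.

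Levels of different genes were compared on the TPM scale, which divides by gene length. The constitutive core subunits led the order: Psmb6 averaged 83.3 TPM in Nae1 cKO nerves and 69.7 TPM in WT nerves, the highest of the 49 genes in both. The median of the 14 core subunits was 47.7 TPM in Nae1 cKO nerves and 40.5 TPM in WT nerves, that of the ATPases 35.1 and 31.1 TPM, that of the other regulatory subunits 36.5 and 30.9 TPM, and that of the assembly factors 7.10 and 6.84 TPM. Psma3 ranked 2 in Nae1 cKO nerves and 6 in WT nerves, Psme2 ranked 21 and 28, and Psme1 ranked 30 and 34. The inducible subunits were low: Psmb10 averaged 15.5 TPM in Nae1 cKO nerves and 14.6 TPM in WT nerves, Psmb8 4.52 and 2.35 TPM, and Psmb9 1.61 and 1.10 TPM. TPM sets each library to a fixed total, and noncoding and mitochondrial genes took 70.3% to 83.2% of it, with the largest share in K2. The median of the 14 core subunits was 32.3 TPM in K2 and 49.97 to 52.4 TPM in L1, L5 and L8. Ratios within a nerve were used to compare subunits, as a description without a test.

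Within each nerve, Psmb8 stood at 11.3%, 11.2%, 15.1% and 14.2% of its constitutive counterpart Psmb5 in TPM in Nae1 cKO nerves K2, L1, L5 and L8, against 6.64%, 10.2%, 6.32% and 9.14% in WT nerves K1, L3, L4 and L9. All Nae1 cKO nerves lay above all WT nerves, with means of 13.0% ± 1.97 and 8.08% ± 1.91 (SD, n = 4 each). Psmb9 averaged 1.94% ± 0.461 of Psmb6 in Nae1 cKO nerves and 1.6% ± 0.452 in WT nerves, and Psmb10 41.7% ± 6.81 of Psmb7 in Nae1 cKO nerves and 43.9% ± 5.98 in WT nerves, with overlap in both. Relative to the median TPM of the 14 core subunits of the same nerve, Psme1 stood at 44.0% ± 2.50 in Nae1 cKO nerves and 30.9% ± 1.78 in WT nerves, Psma3 at 154% ± 10.7 and 119.8% ± 9.12, and Psma5 at 75.5% ± 10.7 and 60.1% ± 2.68, each without overlap. The activators Psme2, at 76.2% ± 11.5 and 52.8% ± 8.69, and Psme4, at 73.6% ± 9.86 and 64.2% ± 4.04, overlapped between genotypes on this scale. Psmb8 also overlapped, at 9.82% ± 1.44 of the core median in Nae1 cKO nerves and 5.86% ± 1.29 in WT nerves, through Nae1 cKO L1 at 7.75% and WT L3 at 7.78%. Psmf1 stood at 22.6% ± 3.91 of the core median in Nae1 cKO nerves and 29.4% ± 4.05 in WT nerves, with overlap.

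**Figure D3:**
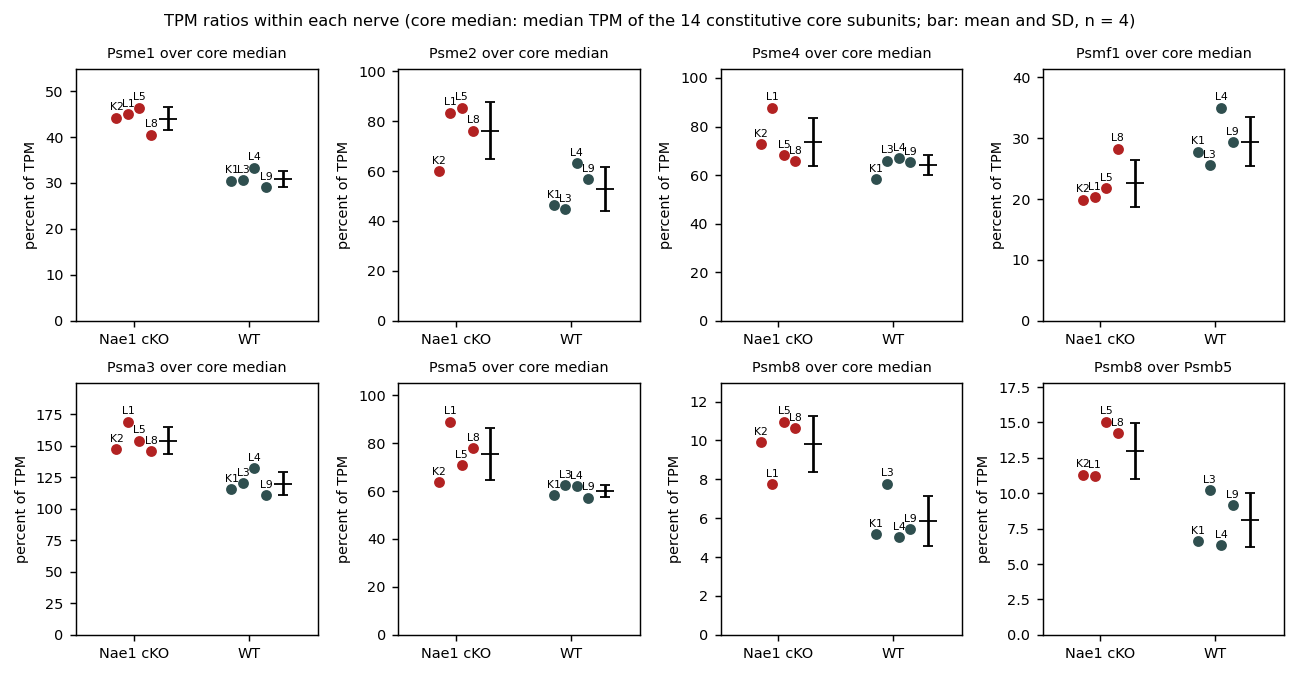
TPM of 7 proteasome genes as a percentage of the median TPM of the 14 constitutive core subunits, and of Psmb8 as a percentage of Psmb5, within each Nae1 cKO nerve (left, red) and WT nerve (right, dark grey), with mean and SD of 4 nerves. The genotypes are fully separated for Psme1, Psma3, Psma5 and Psmb8 over Psmb5, and overlap in the other 4 panels.

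The 3 genes with the largest changes lie in clusters with others of the antigen-processing pathway. Psme1 (chr14:55578123-55581529, plus strand, GRCm38) and Psme2 (chr14:55587441-55591113, minus strand) are 5911 bases apart with their 3′ ends facing each other. Psmb8 (chr17:34197721-34201454, plus strand) is 495 bases from Tap1, 2072 bases from Tap2 and 9956 bases from Psmb9, all within the MHC region. Psma3, Psma5 and Psme4 lie on chromosomes 12, 3 and 11.

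Of 9 partner genes of the immunoproteasome that act in MHC class I presentation, 6 rose and none fell. Their median log2 fold change was 0.40, and of all genes tested 14.1% rose and 12.3% fell. Tap1, which pumps peptides into the endoplasmic reticulum, was at 7.46, 9.20, 11.2 and 10.3 CPM in Nae1 cKO nerves K2, L1, L5 and L8, against 6.28, 6.44, 6.24 and 6.20 CPM in WT nerves K1, L3, L4 and L9 (log2 fold change 0.60, SE 0.15, edgeR adjusted p = 0.0098). On the log2 scale, its partner Tap2 rose by 0.63 (adjusted p = 0.0053 in edgeR), the peptide-trimming enzyme Erap1 by 0.78 (adjusted p = 1.3e-04), and B2m, the light chain of class I molecules, by 0.60 (adjusted p = 7.8e-04). Tapbp and H2-D1 also rose (log2 fold changes 0.40 and 0.38). H2-D1 overlapped between genotypes (adjusted p = 0.046 in edgeR). H2-K1 (0.33), Pdia3 (0.02) and Calr (-0.06) did not pass. The transcription factor Irf1, an interferon-induced activator of immunoproteasome genes, rose by 0.51 on the log2 scale (edgeR adjusted p = 0.0069), whereas Nlrc5, an activator of class I genes (log2 fold change 0.93), did not pass.

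Macrophage markers moved with these genes, in a background of 14.1% of all genes tested higher and 12.3% lower. Of 15 macrophage markers 10 rose and none fell, and their summed level was 453.9 to 586.9 CPM in Nae1 cKO nerves and 263.4 to 298.8 CPM in WT nerves, with none of the 15 at 0. Markers of other leukocytes summed to 22.6 to 32.3 CPM in Nae1 cKO nerves and 14.8 to 18.7 CPM in WT nerves, of which Ptprc, common to leukocytes, made up most. Of these 14 markers 7 were below 0.5 CPM in every library, among them the T cell genes Cd3e and Cd3g and the B cell gene Ms4a1. Klrb1c, a receptor of natural killer cells, was low but rose, at 0.82, 2.02, 1.16 and 1.19 CPM in Nae1 cKO nerves K2, L1, L5 and L8, against 0.44, 0.22, 0.22 and 0.16 CPM in WT nerves K1, L3, L4 and L9 (log2 fold change 2.29, edgeR adjusted p = 0.0018). The part of these cells in the change of Psmb8, Psme1, Psme2 and the class I genes was not tested. Mitosis genes also moved, with 9 of 10 higher and summed levels of 820.6 to 1532 CPM in Nae1 cKO nerves and 522.1 to 728.7 CPM in WT nerves, and their part in the change of the core subunits was not tested.

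Some genes that work with the proteasome rose, in a background of 14.1% of all genes tested higher and 12.3% lower. Among 10 associated proteins, the deubiquitinase Usp14 (log2 fold change 0.35, edgeR adjusted p = 0.016) and the thioredoxin-like Txnl1 (0.38, adjusted p = 0.0039), both bound to the regulatory particle, rose and 8 did not pass. These included Pomp, the maturation factor of the core (0.03), and the ubiquitin receptor Adrm1 (-0.17). Of 6 genes that supply or activate ubiquitin, 2 rose and none fell, among them Rps27a (0.75, adjusted p = 0.0014), which encodes ubiquitin fused to a ribosomal protein. K2 was the highest nerve for Rps27a, at 392 CPM, compared with 252 to 287.5 CPM in L1, L5 and L8. The polyubiquitin gene Ubb (-0.36) did not pass. None of 10 shuttle factors and p97 partners passed.

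The transcripts of transcription factors known to drive proteasome genes differed among themselves, and these RNA data do not measure the levels of their proteins. Nfe2l1, which restores proteasome transcription when the proteasome is inhibited, was at 71.4, 81.4, 82.6 and 90.4 CPM in Nae1 cKO nerves, against 85.9, 75.8, 87.1 and 76.3 CPM in WT nerves, and overlapped (log2 fold change 0.0036, edgeR adjusted p = 0.981). Nfe2l2, which binds the antioxidant response element, was at 41.3, 60.7, 59.6 and 58.4 CPM in Nae1 cKO nerves, against 82.6, 72.0, 91.7 and 88.1 CPM in WT nerves. All Nae1 cKO nerves lay below all WT nerves, and Nfe2l2 fell by 0.60 on the log2 scale (edgeR adjusted p = 0.0034). The small Maf proteins dimerise with both. Of these Maff (1.84, adjusted p = 4.8e-05) and Mafg (0.79, adjusted p = 6.6e-04) rose, and Mafk (0.27) did not pass. Stat3 rose by 0.54 on the log2 scale (edgeR adjusted p = 0.0013), and the 3 NF-Y subunits Nfya, Nfyb and Nfyc did not pass.

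The nerve Nae1 cKO K2 differed from the other Nae1 cKO nerves in an ordered way among the proteasome genes. All 7 beta subunits of the core were higher in K2 than the mean of L1, L5 and L8, with a median log2 ratio of 0.28 (range 0.15 to 0.38). The alpha subunits had a median of 0.07, whereas the ATPases, other regulatory subunits and assembly factors had medians of -0.11, -0.13 and -0.09. A joint shift of the beta subunits was not particular to K2. In Nae1 cKO L1 all 7 were below the mean of the other Nae1 cKO nerves (log2 ratios -0.43 to -0.08). In WT L4 all 7 were below the mean of the other WT nerves (-0.32 to -0.05). L1 was the lowest Nae1 cKO nerve in 21 of the 46 genes. The median absolute log2 ratio over the 46 genes was 0.23 in K2 and 0.09 to 0.12 in the other Nae1 cKO nerves, against 0.25 and 0.13 to 0.17 over all genes tested. Across the 46 genes, the log2 ratio of K2 fell with log2 transcript length (Pearson's r = -0.35, Spearman's rho = -0.41, a description over genes of 1 library, which are not independent). The lengths were the gene-level values deposited for K2, and the same lengths were used for every library. Over all genes tested r was -0.12 in K2, and over the 46 genes r in the other 7 libraries ran from -0.29 in WT K1 to 0.35 in WT L4. Among the WT nerves, L4 was the lowest in 26 of the 46 genes, with a median log2 ratio of -0.14 to the other 3.

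**Figure D4:**
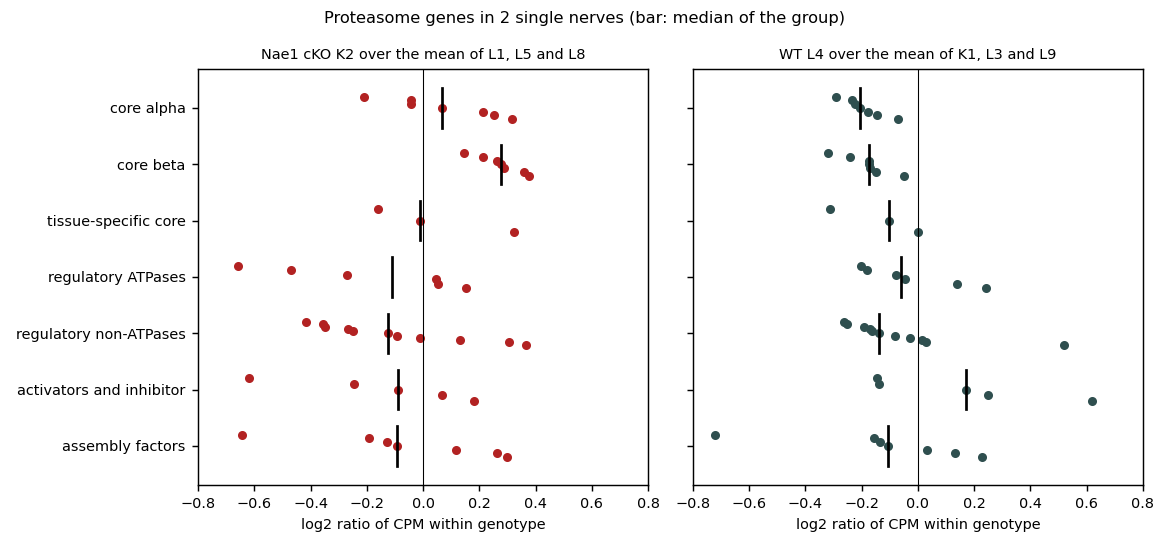
Log2 ratio of CPM of each tested proteasome gene in Nae1 cKO K2 over the mean of the other Nae1 cKO nerves (left) and in WT L4 over the mean of the other WT nerves (right), by role, with a bar at each median. Every beta subunit lies above 0 in K2 (median 0.28), and most genes lie below 0 in L4.

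The 6 genes that rose kept an adjusted p under 0.05 when any 1 of the 8 libraries was left out, with log2 fold changes of 0.66 to 0.86 for Psmb8, 0.56 to 0.68 for Psme2, 0.46 to 0.55 for Psme1, 0.34 to 0.42 for Psma5, 0.34 to 0.39 for Psma3 and 0.28 to 0.36 for Psme4. On the log2(TPM + 1) scale only Psmb8 of the 6 passed. With library totals in place of TMM, which moved the median of all genes to 0.16, 18 proteasome genes rose. The median of the proteasome genes exceeded that of all genes by 0.11 in both fits, and by 0.03 to 0.14 over all alternatives.

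**Figure D5:**
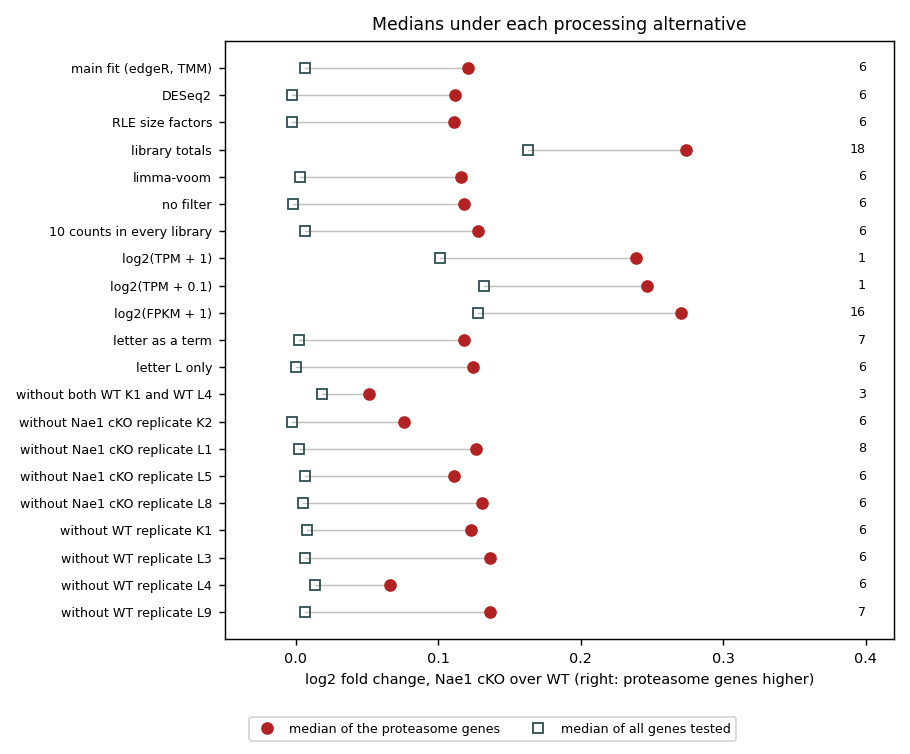
Median log2 fold change of Nae1 cKO over WT (x axis) for the tested proteasome genes (red circles) and for all genes tested (open squares) under each processing alternative, with the number of proteasome genes higher at the right. The proteasome median lies above that of all genes in every setting, and the smallest gap, 0.03, is without both WT K1 and WT L4.

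Some values carry a limit from sequence shared with other genes. Of the 50-base words of each transcript set, 49.1% of those of Psma5 were also in another gene, chiefly Gm8394, which had at most 5.39 counts in a library, and 28.3% of those of Psme2 were shared, chiefly with Psme2b, which had at most 16.3 counts, against 252.9 to 556 counts for Psme2. For Psma3 the share was 15.4% (Gm13835, at most 31.6 counts against 853 to 1336). Psma3 also overlaps 3110056K07Rik on the opposite strand, which had 72 to 116 counts, and the strand setting of the counting is not given in the sources used here. For Psmb8 the share was 0.227%, and Gm20496 on its opposite strand had at most 1.07 counts. For Psmb5, to which Psmb8 was compared within each nerve, the share was 54.1% (chiefly Gm3375, at most 1.05 counts against 355 to 564).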

How the data were processed

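Total RNA of sciatic nerves in 4 Nae1 cKO and 4 WT samples was sequenced by the authors from stranded libraries after rRNA depletion. Sample labels gave the genotype, and the series description gave the age. The deposited gene tables hold the RSEM expected count (an estimated fragment count that need not be whole, unscaled), TPM (which the authors scaled to gene length and a fixed library total) and FPKM (which the authors scaled to gene length and library size). According to the submitters' processing notes, reads were checked with FastQC 0.11.5 and handled with STAR and RSEM on GRCm38, whereas the study's methods name TopHat, mm10 and Cuffdiff, which need the reads. Strand setting, read length and annotation version: not given in the sources used here. GENCODE vM21, which held 52403 of the 53090 identifiers, gave coordinates.

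Expected counts were rounded and filtered with filterByExpr of edgeR by genotype, leaving 17090 genes. After TMM scaling, Nae1 cKO was compared with WT by the robust quasi-likelihood test of edgeR (edgeR 4.0.16, R 4.3.3), without covariates and with Benjamini-Hochberg adjustment over all genes tested. The threshold was an adjusted p under 0.05, with a change over 2-fold given separately. CPM are TMM-scaled, and errors are SD over nerves or, for fold changes, SE. 95% intervals of log2 fold changes use the SE and the degrees of freedom of the quasi-likelihood test. The labels number the nerves but do not say how tissue was pooled, so p-values measure the spread between these samples.

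The proteasome genes and all lists were chosen with earlier results of these data known. In each role group the text names the members with the smallest adjusted p, those against their group and the members that did not pass. Partner lists give up to 4 genes with the smallest adjusted p, plus Nfe2l1 and Nfe2l2, and others named were chosen after their values were seen. Partner lists hold 10 proteasome partners, 6 ubiquitin genes, 10 shuttle and p97 genes, 16 regulators and 9 class I genes. Marker lists cover Schwann cells, macrophages, other leukocytes, muscle, fibroblasts, endothelium and mitosis. Over all genes tested, 14.1% were higher and 12.3% lower. Fibroblast markers had 4 of 10 higher and none lower, endothelium 3 of 10 lower and none higher, muscle 5 of 13 lower and none higher, Schwann lineage 2 higher and 4 lower of 9, and other leukocytes 2 higher of the 3 tested.

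Alternatives were DESeq2 1.42.0, relative log expression (RLE) factors, library totals, limma-voom (limma 3.58.1), no filter, at least 10 counts in every library, limma-trend on log2(TPM + 1), log2(TPM + 0.1) and log2(FPKM + 1), the letter K or L of the sample name as a term, L samples only, without both WT K1 and WT L4, and without each library in turn. Promoter sequences are credited to RefSeq (GRCm38.p6). Some genes of these lists are counted but not reported here by name.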

Additional observations from a re-analysis of the deposited data

Results flagged for a closer look

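In 94 groups of 4 nerves, 1 for each genotype of the 46 tested proteasome genes and Nae1, 5 had a nerve far from the other 3 by Dixon's criterion, which chance gives in about 1 in 20 groups. All 5 were Nae1 cKO nerve K2. It was low for the scaffold subunit Psmd2, at 131 CPM against 172 to 177 CPM in the other Nae1 cKO nerves, for the ATPase Psmc2, at 44.6 CPM against 60.6 to 62.8 CPM, and for Psmd7, at 57.7 CPM against 72.1 to 75.1 CPM. It was high for the catalytic subunit Psmb7, at 60.8 CPM against 52.2 to 52.8 CPM, and for Psmd13, at 60.5 CPM against 55.1 to 55.7 CPM. None of the 5 genes passed the test between genotypes.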

How the results depend on the processing

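With DESeq2, RLE factors, limma-voom, no filter, at least 10 counts in every library and L samples only, the same 6 proteasome genes were higher and none was lower; no alternative had a proteasome gene lower. The count was 18 with library totals (39.13%, against 22.67% of all genes), 16 on log2(FPKM + 1) (34.78%, against 19.65%), 7 with the letter as a term (15.22%, against 16.37%; Psma2 added), 1 on log2(TPM + 1) and on log2(TPM + 0.1) (2.17%, against 7.59% and 7.29%; Psmb8), and 3 without both WT K1 and WT L4 (6.38%, against 7.17%), where Psma5, Psmb8 and Psme4 no longer passed. Library totals added Psma1, Psma2, Psma6, Psma7, Psmb1, Psmb3, Psmc3, Psmc6, Psmd1, Psmd4, Psmd6 and Psmd14. The log2(FPKM + 1) scale added the same genes except Psmc3 and Psmd14. Nae1 did not pass on the TPM scales (log2 fold changes -0.44 and -0.46). Leaving out 1 library gave 6 to 8 higher and 0 lower: Psma2 and Psmb3 were added without Nae1 cKO L1, and Psma1 without WT L9. None passed 2-fold in these fits. Over all genes, 2411 were higher and 2099 lower; leaving out 1 library gave 1939 to 2723 and 1644 to 2504. The counts were 3875 and 1255 with library totals, 1297 and 424 on log2(TPM + 1), 1245 and 415 on log2(TPM + 0.1), 1273 and 1129 without both WT K1 and WT L4, and 3359 and 1035 on log2(FPKM + 1). The share of calls that were higher was 53.46% with TMM, 75.54% with library totals, 75.36% and 75% on the TPM scales and 76.45% on log2(FPKM + 1), with the median of all genes at 0.16, 0.10, 0.13 and 0.13. On the gene's strand alone TGACNNNGC was in 3 promoters, CCAAT in 12 and the interferon-type motif in 2; the share with CCAAT was then above that of all promoters, whereas on both strands it was below. The 10 highest genes by TPM were the 10 highest by FPKM in both genotypes. No paired analysis was possible because the genotypes share no replicate number.

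Only genes that had not passed changed direction. With library totals, log2 fold changes were 0.15 for Psmd3, 0.013 for Psmc5, 0.10 for Psmd9, 0.11 for Psmd8, 0.065 for Psmc4, 0.10 for Psmd10, 0.14 for Psmb10, 0.021 for Psmd7 and 0.061 for Psme3. On log2(FPKM + 1) they were 0.12 for Psmd3, 0.16 for Psmd9, 0.11 for Psmd8, 0.098 for Psmc4, 0.098 for Psmd10, 0.081 for Psmb10, 0.0019 for Psmd7 and 0.29 for Psme3. On log2(TPM + 1) they were 0.095 for Psmd3, 0.13 for Psmd9, 0.085 for Psmd8, 0.071 for Psmc4, 0.069 for Psmd10, 0.055 for Psmb10 and 0.26 for Psme3, and on log2(TPM + 0.1) 0.098 for Psmd3, 0.14 for Psmd9, 0.086 for Psmd8, 0.073 for Psmc4, 0.078 for Psmd10, 0.056 for Psmb10 and 0.28 for Psme3. Without both WT K1 and WT L4 they were -0.012 for Psmg1, -0.030 for Psmb7, -0.031 for Psmb2 and -0.051 for Psma4, and with L samples only 0.014 for Psmd3, -0.039 for Psmb7 and 0.034 for Psmb10. With at least 10 counts, it was 0.0031 for Psmd3. Leaving out 1 library gave -0.017 to 0.11 for Psma4, -0.097 to 0.057 for Psmb10, -0.0001 to 0.12 for Psmb4, -0.052 to 0.031 for Psmb7, -0.023 to 0.074 for Psmc1, -0.085 to 0.0074 for Psmd10, -0.11 to 0.067 for Psmd3, -0.13 to 0.0082 for Psmd8, -0.12 to 0.028 for Psmd9, -0.22 to 0.080 for Psme3 and -0.037 to 0.17 for Psmg1. The causes were not tested. Psmb8 rests on 50 to 120 counts per library, and the 3 genes with too few counts were not tested.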
